A study of Homo sapiens with 8 samples.

Results

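CHST15, OAT, NKX1-2 and LHPP are neighbouring genes on chromosome 10q26 that lie in a region where H3K27ac peaks appeared in HL-60 cells treated with all-trans retinoic acid (ATRA). They are 4 of the 19516 protein-coding genes of the annotation on chromosomes 1 to 22, X and Y. The 4 genes were chosen by their H3K27ac peaks in these same libraries, so the difference in H3K27ac between ATRA-treated and control cells is given as a description, with no test. All peaks from 125.6 to 126.4 Mb of chromosome 10 (build hg19) were collected, a window of 800 kb. The window also touches CPXM2 and FAM53B, which served as neighbours.

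HL-60 is an established human cell line from the peripheral blood of a patient with myeloid leukemia, and its cells differentiate towards granulocytes under ATRA. The ATRA group received 1 µM ATRA for 4 days, and the control group received ethanol, the solvent of ATRA, for 4 days. ChIP-seq was performed for H3K4me3 and for H3K27ac, with 2 replicates of each group and mark, which makes 8 libraries. All values below are positions and lengths of the broad peaks that the authors called in each library with MACS2.

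H3K4me3 (histone H3 trimethylated at lysine 4) marks promoters that are active or ready for transcription. H3K27ac (histone H3 acetylated at lysine 27) marks active promoters and enhancers, and long runs of it within or near a gene are a known feature of genes that are strongly used in a cell type. CHST15 encodes a Golgi sulfotransferase that adds a sulfate group to chondroitin sulfate chains, sugar chains that granule-forming blood cells carry on the proteoglycan serglycin. OAT encodes the mitochondrial enzyme ornithine aminotransferase, NKX1-2 a homeobox transcription factor, and LHPP a phosphatase that acts on phosphohistidine and pyrophosphate.

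In hg19, CHST15 (ENSG00000182022) lies on the minus strand at chr10:125767184-125853114, which is 85.9 kb with 8 exons and a first intron of 46744 bp. OAT (ENSG00000065154) lies on the minus strand at chr10:126085872-126107545. NKX1-2 (ENSG00000229544) lies on the minus strand at chr10:126133812-126138604. LHPP (ENSG00000107902) lies on the plus strand at chr10:126150392-126306457 and spans 156.1 kb. The OAT, NKX1-2 and LHPP starts are therefore close to each other, and a gap of 232.8 kb with no protein-coding gene separates CHST15 from OAT.

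The bases just before the starts of the 4 genes are shown because their promoters differed in H3K4me3. They come from RefSeq (GRCh38.p14), and each matched GRCh37 once; bases in an annotated exon were left out. All are written 5′ to 3′ in the direction of the gene. Capitals mark a match to a motif searched on both strands, here AGGTCA, the core that the retinoic acid receptor binds, read on the opposite strand.
CHST15, chr10:125853115-125853364, minus strand: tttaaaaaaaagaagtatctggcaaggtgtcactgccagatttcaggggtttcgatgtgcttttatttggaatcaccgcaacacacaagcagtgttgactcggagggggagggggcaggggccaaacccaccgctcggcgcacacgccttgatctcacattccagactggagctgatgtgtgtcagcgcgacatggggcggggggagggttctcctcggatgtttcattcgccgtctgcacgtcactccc
OAT, chr10:126107546-126107742, minus strand: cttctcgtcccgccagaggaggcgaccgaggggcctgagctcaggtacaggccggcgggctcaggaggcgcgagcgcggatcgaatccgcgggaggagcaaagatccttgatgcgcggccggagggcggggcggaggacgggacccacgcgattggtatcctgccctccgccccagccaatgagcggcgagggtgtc
NKX1-2, chr10:126138618-126138854, minus strand: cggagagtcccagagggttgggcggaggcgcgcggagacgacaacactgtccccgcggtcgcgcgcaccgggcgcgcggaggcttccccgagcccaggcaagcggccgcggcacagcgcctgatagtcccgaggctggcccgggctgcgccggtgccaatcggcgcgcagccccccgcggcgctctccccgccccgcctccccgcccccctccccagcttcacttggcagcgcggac
LHPP, chr10:126150142-126150391, plus strand: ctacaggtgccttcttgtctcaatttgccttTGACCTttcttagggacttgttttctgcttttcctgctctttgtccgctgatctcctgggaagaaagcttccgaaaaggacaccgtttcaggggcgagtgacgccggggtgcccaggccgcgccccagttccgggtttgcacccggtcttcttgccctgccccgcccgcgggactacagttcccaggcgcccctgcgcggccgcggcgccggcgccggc
The CHST15 sequence held 55.6% G and C and 14 CpG in 250 bases. The others were richer, with 71.1% and 24 CpG in 197 bases for OAT, 78.1% and 35 CpG in 237 bases for NKX1-2, and 63.6% and 22 CpG in 250 bases for LHPP. H3K4me3 lay over the LHPP sequence in all 4 H3K4me3 libraries and over the OAT sequence in 3 of them. No peak of either mark lay over the CHST15 or the NKX1-2 sequence in any library.

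The centres of 4 stretches of H3K27ac are shown as well, because they carried the ATRA signal in both replicates and no control peak. The central 300 bases of each were read from GRCh37 on the plus strand, and none touched an annotated exon. The first is the longest stretch and the second the longest in intron 1. The third is the one nearest to the CHST15 start, and the last is the longest between CHST15 and OAT. Capitals mark matches to AGGTCA or AGTTCA (cores of retinoic acid receptor sites), GAGGAAGT (PU.1), TTGCGCAA (C/EBP), TGTGGT (RUNX) or TGANTCA (AP-1) on either strand.
CHST15 introns 3 to 5, chr10:125795720-125796019: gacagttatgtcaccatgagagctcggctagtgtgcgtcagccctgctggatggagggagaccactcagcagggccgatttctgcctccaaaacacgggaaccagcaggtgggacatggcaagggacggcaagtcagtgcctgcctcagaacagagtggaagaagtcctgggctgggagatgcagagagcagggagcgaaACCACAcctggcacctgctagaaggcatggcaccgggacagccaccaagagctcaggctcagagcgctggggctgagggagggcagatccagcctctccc
CHST15 intron 1, chr10:125813823-125814122: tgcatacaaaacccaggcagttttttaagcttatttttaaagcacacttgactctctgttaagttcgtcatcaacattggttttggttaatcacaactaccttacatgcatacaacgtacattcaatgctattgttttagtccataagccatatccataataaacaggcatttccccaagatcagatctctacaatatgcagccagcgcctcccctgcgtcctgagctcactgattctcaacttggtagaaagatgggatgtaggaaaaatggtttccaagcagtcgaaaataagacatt
CHST15 intron 1 near the start, chr10:125846358-125846657: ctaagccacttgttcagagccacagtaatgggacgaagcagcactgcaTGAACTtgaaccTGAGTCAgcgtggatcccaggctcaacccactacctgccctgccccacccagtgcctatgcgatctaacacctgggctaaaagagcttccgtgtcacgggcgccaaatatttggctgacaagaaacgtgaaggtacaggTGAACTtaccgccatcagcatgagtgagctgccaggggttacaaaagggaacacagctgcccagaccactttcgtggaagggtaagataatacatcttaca
Upstream of CHST15, chr10:125938364-125938663: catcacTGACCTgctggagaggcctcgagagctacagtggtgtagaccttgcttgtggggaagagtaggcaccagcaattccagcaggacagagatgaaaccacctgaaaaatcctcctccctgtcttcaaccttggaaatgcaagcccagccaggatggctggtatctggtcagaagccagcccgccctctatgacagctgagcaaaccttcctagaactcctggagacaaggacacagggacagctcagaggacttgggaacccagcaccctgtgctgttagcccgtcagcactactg
The stretch nearest to the start held 2 matches to AGTTCA and 1 to TGANTCA, and the upstream stretch held 1 match to AGGTCA. The longest stretch held 1 match to TGTGGT, and the intron 1 stretch held no match.

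Of the 20 stretches in and beside CHST15 that both ATRA libraries shared and no control library had, 17 were at least 300 bp long and were searched at their centre. AGGTCA was found in 5 of the 17 (29.4%), against 18.7% of 19820 shared ATRA stretches over the genome. AGTTCA was found in 3 (17.6%, against 14.9%), TGTGGT in 5 (29.4%, against 18.5%) and TGANTCA in 1 (5.88%, against 8.44%). GAGGAAGT and TTGCGCAA were found in none of the 17, and over the genome in 3.59% and 0.0555% of the stretches. Among the 250 bases before 35116 RefSeq starts, AGGTCA was found in 12.1%, AGTTCA in 8.80%, GAGGAAGT in 2.17%, TTGCGCAA in 0.131%, TGTGGT in 3855 of them and TGANTCA in 6.57%. A match is a run of letters and no evidence of binding. The median share of G and C was 48.3% in the 17 stretches and 50.3% over the genome.

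The H3K27ac libraries differed in how much was called over the whole genome. The ATRA libraries covered 64.8 and 86.1 Mb with 28200 and 39332 peaks, and the control libraries covered 28.8 and 54.0 Mb with 15457 and 29616 peaks. The H3K4me3 libraries were closer, with 63.2 and 62.3 Mb in ATRA and 59.8 and 47.7 Mb in control. The number of reads behind the peaks is unknown, so a missing peak means that none was called, and no interval from counts can be given. More cells carrying a mark and more of the mark per cell cannot be told apart in such bulk samples. As a check of the cell type, 6 of 7 myeloid and leukocyte markers had an H3K4me3 promoter peak in all 4 libraries, the exception being LYZ, and none of the 10 T cell, B cell, erythroid or epithelial markers had one in any. Of 5 markers of granulocytic differentiation, 3 and 3 had one in ATRA and 2 and 1 in control. NCF1 and FPR1 had none in any library. The lowest count was in control replicate 2, the library with the least H3K4me3 called.

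In the window, H3K27ac peaks covered 90121 and 75364 bp in the 2 ATRA libraries and 25109 and 12749 bp in the 2 control libraries. These were 44 and 31 peaks in ATRA and 12 and 6 in control. The control peaks lay in LHPP and FAM53B, at the far end of the window from CHST15. From the window start to the beginning of FAM53B, the length was 59820 and 61495 bp in ATRA and 1030 and 873 bp in control. Per Mb covered in the same library over the whole genome, this was 923 and 714 bp in ATRA and 35.8 and 16.2 bp in control. In the rest of the window, within FAM53B, the groups overlapped, with 30301 and 13869 bp in ATRA and 24079 and 11876 bp in control. Per Mb covered, FAM53B had 467 and 161 bp in ATRA and 836 and 220 bp in control, which also overlapped. On this scale the whole window had 1390.0 and 874.8 bp in ATRA and 872.0 and 236.3 bp in control, so the lower ATRA library stood just above the higher control library. With a −log10 q of at least 5, the window kept 16 and 12 H3K27ac peaks in ATRA and 0 and 0 in control. Over the whole genome, this filter kept from 12.8% (control replicate 2) to 16.9% (ATRA replicate 2) of the H3K27ac peaks of a library. The control libraries had only 12 and 6 peaks in the window, so few could pass, and little is read from the 0 and 0. The contrast also uses the peaks by which the genes were chosen.

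**Figure D1:**
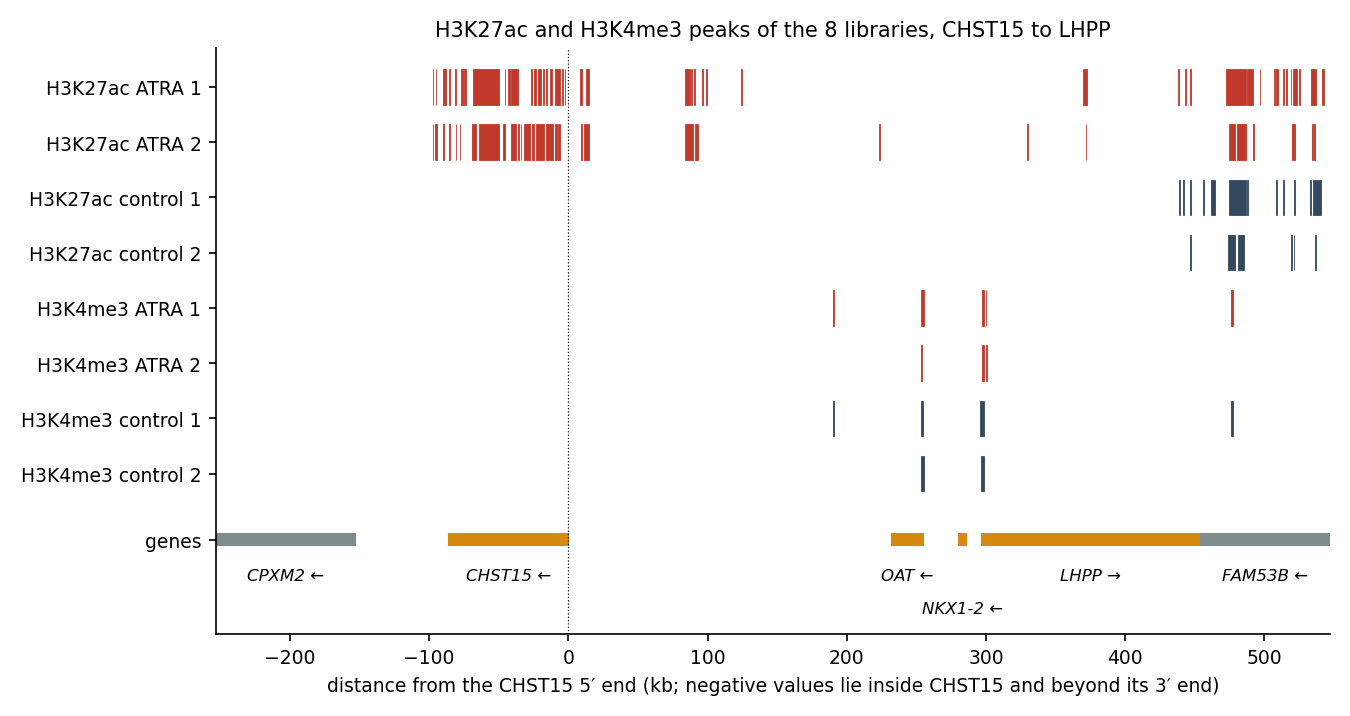
Peaks of the 8 libraries in the 800 kb window, by distance in kb from the CHST15 5′ end (ATRA red, control dark blue; genes below, with arrows for the direction of transcription). H3K27ac in and beside CHST15 was present in both ATRA libraries and in neither control library, and the peaks in FAM53B were present in all 4 H3K27ac libraries.

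CHST15 carried the largest part of this signal. Over the gene and 2 kb on each side, H3K27ac covered 41639 and 45952 bp in ATRA and 0 and 0 bp in control, which is 46.3% and 51.1% of that span in ATRA. The mean in ATRA was 43795.5 ± 3049.8 bp (SD, n = 2), and both ATRA libraries were above both control libraries. It came from 17 and 15 peaks of 200 to 18821 bp and of 200 to 14414 bp. No fold is given, because the control libraries are at 0. Without a control peak nearby, the region free of control H3K27ac around the CHST15 start extended over 1376.8 kb in the first and 1384.5 kb in the second control library.

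H3K27ac filled much of the first intron of CHST15 but left out its start. Intron 1 was covered over 19129 and 26671 bp in ATRA, 40.9% and 57.1% of its length. The intron makes up 46744 of the 85931 bp of the gene. It held 46.1% and 58.0% of the covered length, near its share of the gene. It held 12 of the 17 and 10 of the 15 CHST15 peaks. The peaks with the highest −log10 q were there too: all 8 and all 7 CHST15 peaks with a −log10 q of at least 5 lay in intron 1. Outside it the highest −log10 q was 3.15 and 4.06. A high −log10 q in 1 library did not mean that the other replicate had the peak. The highest of replicate 1 (16.5) was shared over its full 1358 bp, and the highest of replicate 2 (18.6) shared no base with replicate 1. Exons made up 2.66% and 3.01% of the covered length. Within 2 kb of the 5′ end there was no H3K27ac in any library. The nearest ATRA peak began 2236 bp from the 5′ end in replicate 1 and 6124 bp from it in replicate 2, and the nearest control peak was 438747 and 446612 bp away. That peak of replicate 1 was 200 bp long, with a −log10 q of 0.993, and shared no base with replicate 2. Of the 5 annotated CHST15 transcript starts, 1 had H3K27ac within 1 kb in each ATRA library and 0 had it in control. The starts were counted per library, so the count does not tell whether it was the same start.

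The longest single peak at CHST15 ran over exons 4 and 5 and introns 3 to 5. It measured 18821 bp in ATRA replicate 1 (chr10:125784558-125803378) and 14414 bp in replicate 2 (chr10:125788663-125803076). By length it ranked 183 of 28200 peaks in the first library and 310 of 39332 in the second. In replicate 2 a separate peak of 3004 bp (chr10:125784123-125787126) lay beside it.

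**Figure D2:**
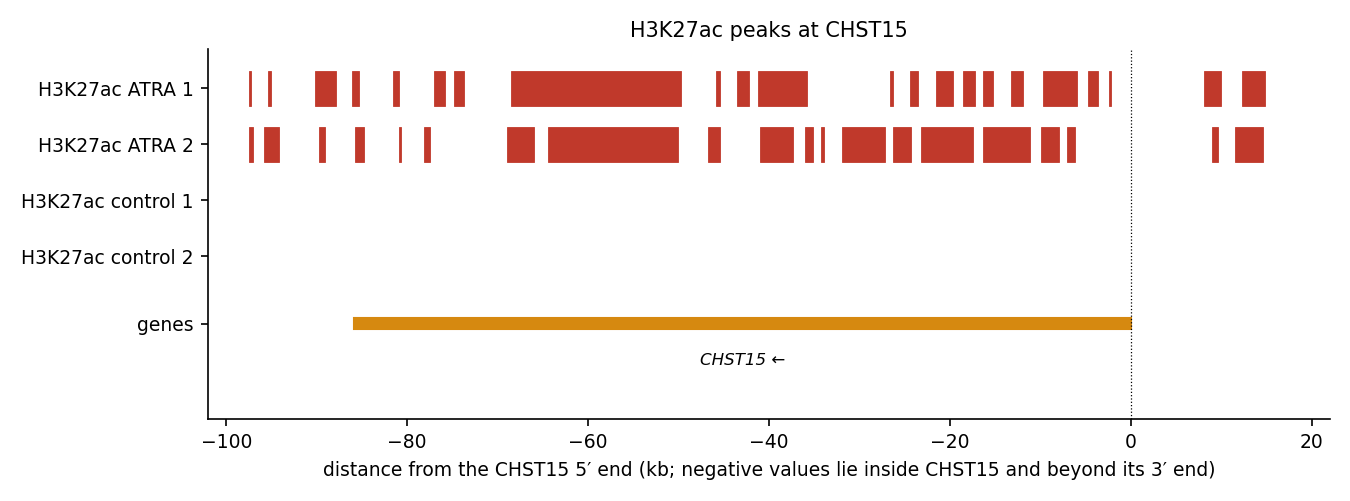
H3K27ac peaks at CHST15 by distance in kb from its 5′ end, 1 line per library (ATRA red). The control lines are empty, and the ATRA peaks stop 2236 and 6124 bp short of the 5′ end. The peak at 2236 bp, in replicate 1, was not shared with replicate 2.

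The 2 ATRA libraries shared part of their H3K27ac. In the window they shared 51167 bp, 56.8% of the length in replicate 1 and 67.9% of that in replicate 2. As a share of the union of both libraries this was 44.8% in the window and 45.6% over the genome. Of the CHST15 peaks, 10 of 17 and 11 of 15 shared at least 1 bp with the other replicate. Cut to the bases under a peak in both libraries, the window held 26 stretches, and 21 of them met no control peak. These 21 measured 49 to 14414 bp, with a median of 966.0 bp and a sum of 38342 bp. None met an H3K4me3 peak of the ATRA libraries. The other 5 all lay in FAM53B.

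Of the 21 stretches, 13 touched CHST15 and summed to 29912 bp. Their order follows from the 3′ end of the gene to its start. The last exon held 533 bp (chr10:125767303-125767835), intron 5 held 2569 bp (chr10:125784558-125787126), and the 14414 bp of exons 4 and 5 came next (chr10:125788663-125803076). Intron 1 held the other 10. At the end of the intron far from the start they measured 405 bp (chr10:125807273-125807677), 3630 bp (chr10:125812158-125815787), 181 bp (chr10:125817083-125817263) and 49 bp (chr10:125828711-125828759). A denser series followed with 1790 bp (chr10:125831621-125833410), 1113 bp (chr10:125834588-125835700), 1152 bp (chr10:125836759-125837910) and 1358 bp (chr10:125839894-125841251). The 2 nearest to the start measured 1752 bp (chr10:125843404-125845155) and 966 bp (chr10:125846025-125846990). Their centres lay 8.8 and 6.6 kb inside the gene from its 5′ end.

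The signal went past both ends of the gene. On the 3′ side, up to the window start, H3K27ac covered 2875 and 2701 bp in ATRA and 0 and 0 bp in control, with 3 shared stretches of 200 bp (chr10:125755663-125755862), 319 bp (chr10:125757701-125758019) and 689 bp (chr10:125763366-125764054). Between the CHST15 5′ end and OAT it covered 11008 and 11915 bp in ATRA, from 8 and 5 peaks, and 0 and 0 bp in control. The 4 shared stretches there formed 2 pairs. The near pair measured 659 bp (chr10:125862097-125862755) and 2280 bp (chr10:125865465-125867744), with centres 9.3 and 13.5 kb upstream of the CHST15 start. The far pair measured 3245 bp (chr10:125936892-125940136) and 601 bp (chr10:125941180-125941780), with centres 85.4 and 88.4 kb upstream. Beyond the far pair the replicates differed. The last peak before OAT was 989 bp long in replicate 1 (chr10:125977190-125978178) and 589 bp long in replicate 2 (chr10:126076582-126077170), and neither had a match in the other.

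CHST15 had no H3K4me3 peak in any library. The nearest H3K4me3 peak was 190444 and 253012 bp from its 5′ end in ATRA and 190350 and 253107 bp in control. Those at the shorter distance were short peaks between CHST15 and OAT, of 200 bp in ATRA replicate 1 (chr10:126043558-126043757) and 540 bp in control replicate 1 (chr10:126043464-126044003), with none in the libraries numbered 2. The region free of H3K4me3 around the CHST15 start measured 1124.0 and 1187.0 kb in ATRA and 1125.2 and 1188.4 kb in control.

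A gene was called ATRA-only where the gene and 2 kb on each side held an H3K27ac peak in both ATRA libraries and in neither control library. This was so for 678 of 19516 genes (3.47%) and for 1 of the 4 genes here, CHST15. Since CHST15 was selected on this contrast, nothing is read from that count. The mean ATRA length at CHST15, 43795.5 bp, was the largest among the 678. The next gene had 23968.0 bp, and the median was 1673.0 bp. This rank uses the values on which CHST15 was chosen, so it is a description only. Genes with any control peak stand outside the ranking, and some of them had longer H3K27ac in ATRA. The lengths were not scaled to gene span. Of the 678 genes, 360 (53.1%) had no H3K4me3 within 1 kb of their 5′ end in any library, as was the case at CHST15. By the wider call, in which both ATRA libraries only had to exceed both control libraries, 25.9% of the 19516 genes were higher, again with CHST15 as the 1 of the 4 genes here, and 2.72% were lower, with none of the 4.

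**Figure D3:**
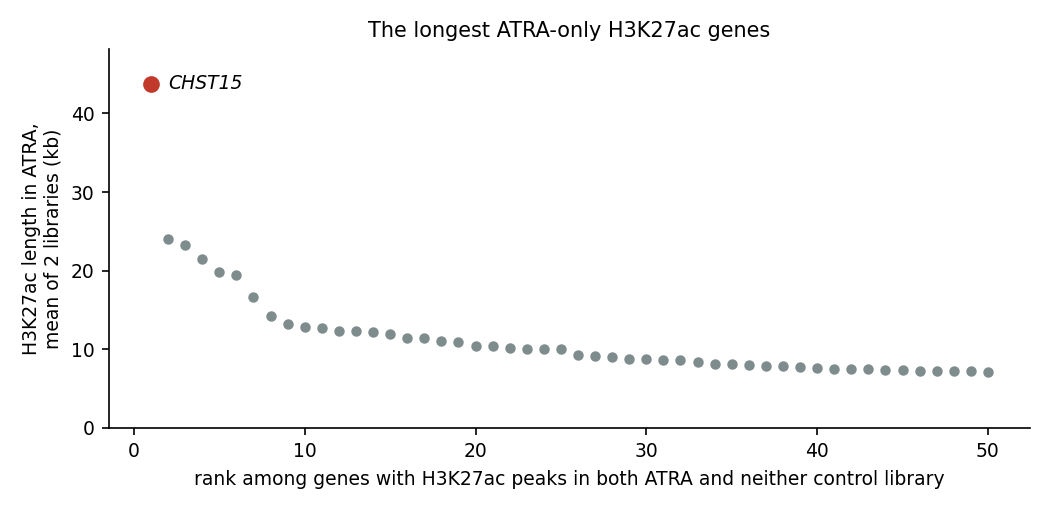
Mean H3K27ac length in the 2 ATRA libraries (kb) for the 50 ATRA-only genes with the longest H3K27ac, ordered by rank. CHST15 (red), chosen on these values, stands at 43795.5 bp, and the next gene at 23968.0 bp. Genes with any control peak are not shown.

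OAT had H3K4me3 at its promoter in every library and no H3K27ac in any. Its H3K4me3 peak measured 2144 and 1199 bp in ATRA and 1770 and 2018 bp in control. The groups overlapped, and the difference of the means was −222.5 bp (exact two-sided permutation test, p = 1.00). The peaks ran from chr10:126106111-126108254 and chr10:126106126-126107324 in ATRA to chr10:126106191-126107960 and chr10:126106221-126108238 in control. Their ends inside intron 1 lay within 110 bp of each other, and the outer ends lay within 930 bp of each other. In ATRA replicate 2 the peak stopped 221 bp short of the 5′ end, and in the other 3 libraries it ran over it. The nearest H3K27ac peak was 115379 and 30375 bp from the OAT 5′ end in ATRA and 184316 and 192181 bp from it in control. Of 8 annotated OAT starts, 3 had H3K4me3 within 1 kb in each library.

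NKX1-2 had no peak of either mark within 2 kb in any library. The nearest H3K4me3 was the peak at the LHPP start, 11312 and 11374 bp from the NKX1-2 5′ end in ATRA and 10097 and 10812 bp from it in control. The nearest H3K27ac was 84320 and 44150 bp away in ATRA and 153257 and 161122 bp away in control. Among the other 10 genes of the NK homeobox list, none had H3K27ac in any library, and 1, NKX3-2, had H3K4me3 at its promoter. Over all 19516 genes, 6519 had no H3K27ac in any library, and 10468 had H3K4me3 at the promoter in at least 1. NKX3-2 was named after its values were seen.

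LHPP had H3K4me3 at its promoter in every library, and its H3K27ac lay deep in the gene. The H3K4me3 promoter peak measured 1560 and 1408 bp in ATRA (chr10:126149916-126151475 and chr10:126149978-126151385) and 2733 and 1941 bp in control (chr10:126148701-126151433 and chr10:126149416-126151356). The −log10 q of the peak in ATRA replicate 2 was 4.24. It was shorter in both ATRA libraries than in both control libraries, with a difference of the means of −853.0 bp. The exact two-sided permutation test gave p = 0.33, the smallest that 2 libraries against 2 allow, so it cannot pass the usual threshold. The difference was on the upstream side, where the peak reached 476 and 414 bp beyond the start in ATRA and 1691 and 976 bp in control.

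A second H3K4me3 peak in intron 1 of LHPP was called in both ATRA libraries and in neither control library. It measured 225 bp in ATRA replicate 1 (chr10:126152848-126153072) and 779 bp in replicate 2 (chr10:126152780-126153558), with a −log10 q of 10.3 and 1.12. With it, the H3K4me3 length inside the gene was 1309 and 1773 bp in ATRA and 1042 and 965 bp in control, so inside the gene the order of the groups was the opposite of that of the promoter peak.

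Over the 10468 promoters with an H3K4me3 peak in at least 1 library, 40.6% had a longer peak in both ATRA libraries and 4.75% a shorter one. Of the 2 promoters here with a peak, OAT and LHPP, 0 were longer and 1, LHPP, was shorter. H3K4me3 in all 4 libraries with no H3K27ac within 1 kb of the 5′ end in any was found at 1002 of 9824 promoters (10.2%), and both OAT and LHPP were among them.

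**Figure D4:**
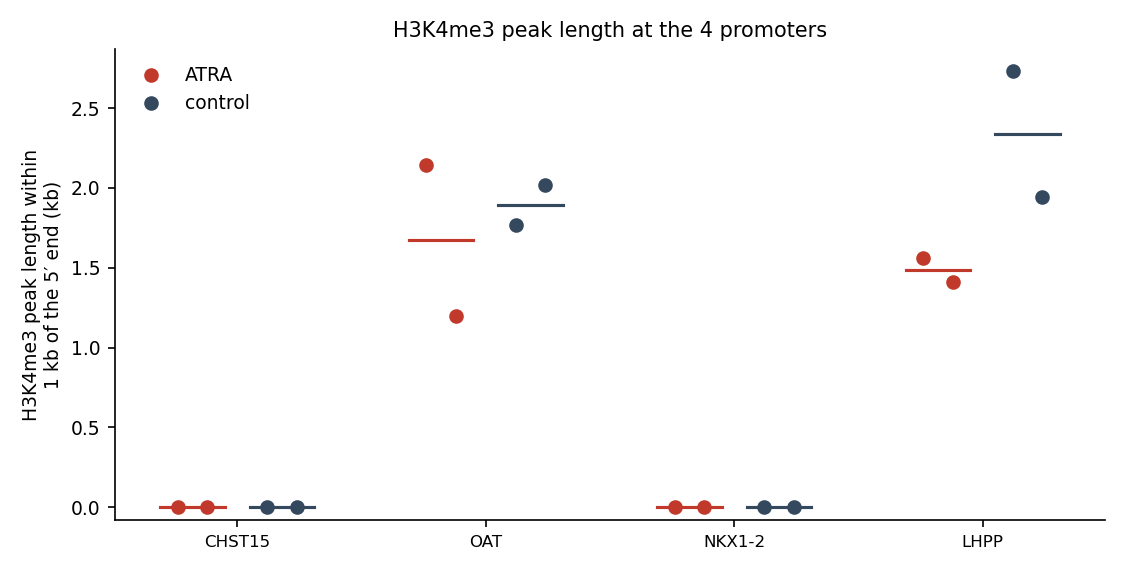
Summed length of the H3K4me3 peaks (kb) within 1 kb of the 5′ end of each gene, with 1 point per library and a line at the mean of each group (ATRA red, control dark blue). CHST15 and NKX1-2 are at 0 in all libraries, the OAT groups overlap, and both ATRA values of LHPP lie below both control values.

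H3K27ac inside LHPP covered 4421 and 927 bp in ATRA and 1030 and 873 bp in control. The groups overlapped on this measure, because the second ATRA library was below the first control library. ATRA replicate 1 had 4 peaks and replicate 2 had 2, against 3 and 1 in control. A stretch of 437 bp in intron 6 (chr10:126224601-126225037) was shared by both ATRA libraries with no control peak. It belonged to a peak of 2868 bp in replicate 1 (chr10:126222924-126225791). Further along intron 6, a peak was called near one place in 3 of the 4 libraries, with 428 bp in ATRA replicate 1 (chr10:126299757-126300184), 324 bp in control replicate 1 (chr10:126299758-126300081) and 873 bp in control replicate 2 (chr10:126299726-126300598). No H3K27ac lay within 2 kb of the LHPP 5′ end in any library. Of 9 annotated LHPP starts, 1 had H3K27ac within 1 kb in each control library, a different one in each, and 0 had it in either ATRA library. These control peaks were weak, with a −log10 q of at most 1.92. In control replicate 2 it was the peak of 873 bp (−log10 q 0.746). ATRA replicate 1 had a peak at the same place (5.28), so the contrast rests on the 1 kb limit there.

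**Figure D5:**
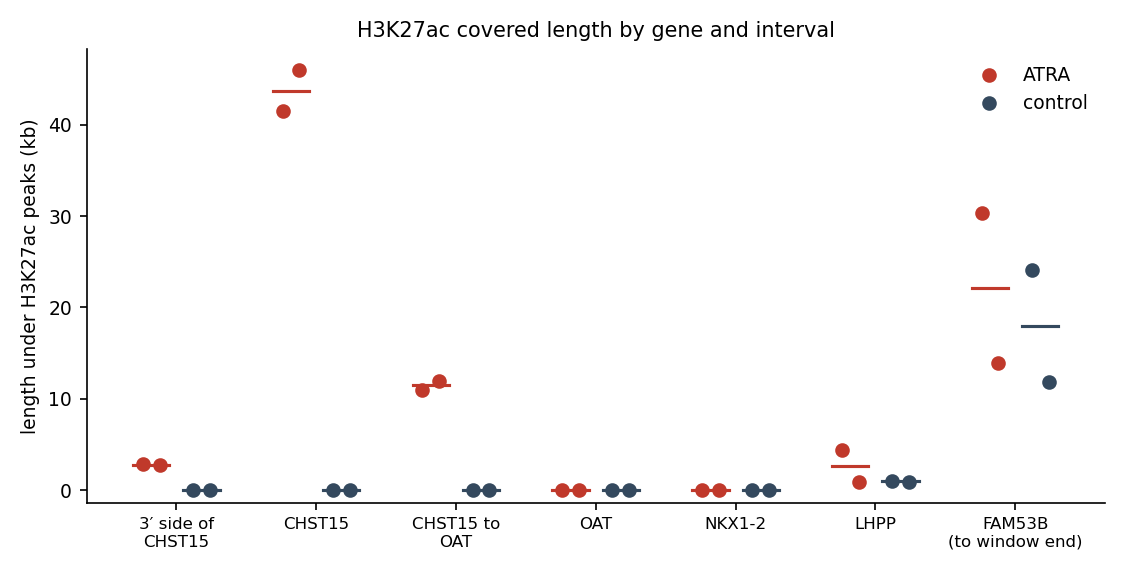
Length under H3K27ac peaks (kb) by gene and interval along the window, with 1 point per library and a line at the mean of each group (ATRA red, control dark blue). CHST15 reached 41516 and 45952 bp within its span in ATRA with 0 in control, while OAT and NKX1-2 stayed at 0 in all libraries and the groups overlapped in LHPP and FAM53B.

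The neighbours on either side differed from CHST15. CPXM2, which encodes a protein related to carboxypeptidases, had no peak of either mark within its span and 2 kb. FAM53B, the gene after LHPP, had H3K27ac in all libraries, with 40106 and 28000 bp in ATRA and 28740 and 19288 bp in control over the gene and 2 kb on each side, and the groups overlapped. At its 5′ end, the summed length of the H3K27ac peaks within 1 kb was 2991 and 5901 bp in ATRA and 0 and 900 bp in control.

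CHST15 acts in the assembly and sulfation of chondroitin sulfate, and 23 other genes of that process were examined. None was ATRA-only in H3K27ac, beside 3.47% of all genes, so little is read from the absence in a list of this size. Both ATRA libraries exceeded both control libraries in 4 of the 23, XYLT1, XYLT2, B3GAT3 and CSGALNACT1, named after their values were seen, and 1, CHST13, was lower. Over all genes, 25.9% were higher and 2.72% lower. Over the list, the median difference between the mean lengths of ATRA and control was 533.0 bp, and over all genes it was 106.0 bp. Of the other sulfotransferases of the list named CHST, CHST11, a chondroitin 4-O-sulfotransferase, had 51956 and 72401 bp of H3K27ac in ATRA and 50581 and 61756 bp in control, and CHST13 had 3273 and 5423 bp in ATRA and 9256 and 9700 bp in control. CHST12 had 5656 and 7390 bp in ATRA and 6009 and 6895 bp in control. CHST7 had 0 and 2149 bp in ATRA and 0 and 349 bp in control, and CHST3 and CHST14 had none. SRGN, which encodes serglycin, had 6175 and 8658 bp in ATRA and 4714 and 6543 bp in control, and its groups overlapped.

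At promoters of the same list, 16 of 23 genes had H3K4me3, beside 10468 of 19516 over all genes. It was longer in both ATRA libraries in 8 and shorter in 2, against 40.6% and 4.75% of all promoters with a peak. The 2 were CHST11, with 7711 and 6822 bp in ATRA and 10409 and 7790 bp in control, and CHST12, with 5251 and 5388 bp in ATRA and 8163 and 5527 bp in control. SRGN was among the 8, with 8903 and 10029 bp in ATRA and 7194 and 6860 bp in control, and so was CHST7, with 5555 and 5793 bp in ATRA and 4694 and 4396 bp in control. CHST3, CHST13 and CHST14 had no H3K4me3 peak at their 5′ ends, as was the case for CHST15.

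Of 14 genes of ornithine and proline metabolism, the process of OAT, none was ATRA-only in H3K27ac, beside 3.47% of all genes. In H3K27ac 6 were higher in both ATRA libraries and 0 were lower, against 25.9% and 2.72% of all genes. H3K4me3 was present at 7 of the 14 promoters, beside 10468 of 19516 over all genes. It was longer in both ATRA libraries at 5 and shorter at 0, against 40.6% and 4.75% of all promoters with a peak. The median difference in H3K27ac length was 159.75 bp, beside 106.0 bp over all genes. Of 4 further phosphohistidine and pyrophosphate phosphatase genes, the process of LHPP, none was ATRA-only or higher in H3K27ac and 1, PHPT1, named after its values were seen, was lower, and all 4 had H3K4me3, longer at 1 and shorter at 0. The same shares of all genes and promoters apply to these counts. The median difference was −160.5 bp, beside the same 106.0 bp over all genes.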

How the data were processed

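HL-60 cells were analyzed by ChIP-seq for H3K4me3 and H3K27ac in 8 libraries, 2 per mark and group. Per the study's methods, the authors trimmed adapters, mapped the reads to hg19 (Bowtie) and ran MACS2 in broad mode, and each library has its own peak file. The submitters' processing notes also name cutadapt. Versions are not given in the sources used here. Input DNA was sequenced, and its use in the call is not stated. The deposited files give the position of each peak and a −log10 q, which served as a filter (at least 5) and to describe single peaks. The deposited columns of fold and −log10 p hold impossible values and were not used. No read counts were used, so the depth is unknown and precision rests on 2 replicates per group. Nothing used here says whether replicates came from separate cultures, so their spread may be technical.

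The 4 genes, the window, the gene lists, the markers and the motifs were chosen with earlier results of these data known. Genes came from GENCODE release 44 mapped to GRCh37, and 0 of 174751 peaks ran past a chromosome end. Positions are 1-based. Covered length was counted over the gene and 2 kb on each side, and promoter H3K4me3 as the full length of peaks within 1 kb of the 5′ end. The genes named were the 4 genes, the neighbours touching the window, the CHST genes and SRGN of the lists, and list genes called ATRA-only. H3K4me3 was compared by exact two-sided permutation tests over libraries. Overlap code was tested on simulated peaks. Alternatives were the filter on −log10 q, peaks of at least 1 kb, the gene flank, the promoter reach, the form of the shared stretches, each library left out and the replicate number as a block. The software was Python 3.11.15, numpy 2.4.6, scipy 1.17.1 and matplotlib 3.10.9.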

Additional observations from a re-analysis of the deposited data

How the results depend on the processing

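With control at 0 at CHST15, filtering peaks or leaving out a library cannot raise it, so these alternatives bear only on the ATRA length. The ATRA minus control length at CHST15, 43795.5 bp, became 17265 bp with a −log10 q of at least 5, 40680.5 bp with peaks of at least 1 kb and 47470 bp with a flank of 10 kb, and it was between 41639 and 45952 bp with 1 library left out. In the window the difference of 63813.5 bp became 26330 bp with the −log10 q filter and was between 56435 and 71192 bp with 1 library left out. The 21 ATRA stretches without control became 5 with the −log10 q filter, 11 with peaks of at least 1 kb, 5 with a reciprocal overlap of 50%, and 9 with stretches closer than 4 kb merged, a setting chosen after seeing the data. With 1 library left out they were between 21 and 36. The highest came without ATRA replicate 2, where any peak of the other ATRA library counts. OAT, at 0, gained 294.5 bp with a flank of 10 kb. Peak names carry a common tag in libraries with equal replicate numbers, and the deviations of such libraries from the group means correlated at 0.223 (H3K4me3) and 0.556 (H3K27ac) over 75829 bins of 40 kb. With the replicate number as a block, the CHST15 difference was 41639 bp in the libraries numbered 1 and 45952 bp in those numbered 2, and the stretches were 37 and 27.

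H3K4me3 lengths had no stable direction at OAT, where the difference of −222.5 bp was 374 bp within the libraries numbered 1 under the replicate block and between −695 and 250 bp with 1 library left out. In the window, the H3K4me3 difference of −1074 bp was between −2631.5 and 483.5 bp with 1 library left out, with the highest value without control replicate 1. LHPP stayed below 0, between −1249 and −457 bp with 1 library left out and at −1557 bp with the −log10 q filter, which removes its peak of ATRA replicate 2. With peaks within 5 kb, which adds its intron 1 peak, its difference was −351 bp and the groups overlapped (exact permutation test, p = 0.67). The H3K27ac difference at LHPP was −24.5 bp without ATRA replicate 1. Promoters with longer H3K4me3 under ATRA numbered 4245, and 2191 when length was counted within 2 kb of the 5′ end. Sequencing depth is unknown, and it limits every absence of a peak.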
